A study of Mus musculus with 2 samples.

Results

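The carbonic anhydrase genes described here were 10 of the 42462 genes that carried a symbol, in a gene table of 69691 rows. They were Car1, Car2, Car3, Car4, Car5b, Car7, Car8, Car9, Car12 and Car13, taken by symbol. The choice was made with earlier results of these data known, and 6 further carbonic anhydrase genes outside it are described below. Polyadenylated RNA had been sequenced in G1E-ER4, an immortalized mouse erythroid line made from cells without Gata1. In this line an introduced GATA-1 protein, the main transcription factor of red cell maturation, is fused to a hormone-binding domain of the estrogen receptor and is active when hormone is added. Both libraries came from cells given 10 nM 17beta-estradiol for 24 hours, and the labels call them biological replicates 1 and 2. The labels give both the same biosample identifier and do not say whether they were separate cultures, so the spread between them may be technical. They formed 1 group, and no untreated library was analysed here, so the values describe the hormone-treated state only and carry no p-value.

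Carbonic anhydrases speed the conversion of carbon dioxide and water into bicarbonate and a proton, and the reverse reaction. In red cells the cytosolic enzymes turn tissue carbon dioxide into bicarbonate, which leaves through the chloride-bicarbonate exchanger band 3, and reverse this in the lung. The active enzymes hold a zinc ion by 3 histidines. Family members differ in speed and in where they sit: in the cytosol, in mitochondria or at the cell surface.

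The zinc-binding stretch is printed for the 4 members on chromosome 3, which held nearly all of the family's reads. The letters come from GENCODE M21 transcripts on the mouse assembly GRCm38 and run 5′ to 3′ on the coding strand, with the intron that splits each stretch removed. Capitals mark the codons aligned to the 3 zinc-binding histidines of Car2.
Car2: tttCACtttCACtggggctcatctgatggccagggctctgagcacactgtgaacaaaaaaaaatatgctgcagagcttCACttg
Car1: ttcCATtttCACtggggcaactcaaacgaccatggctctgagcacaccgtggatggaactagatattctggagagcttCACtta
Car3: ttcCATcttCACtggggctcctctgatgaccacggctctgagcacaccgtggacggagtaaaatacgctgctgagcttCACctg
Car13: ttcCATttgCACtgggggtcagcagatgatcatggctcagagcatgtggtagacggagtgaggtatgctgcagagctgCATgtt
These stretches lie in exons at chr3:14895066-14895543 on the plus strand for Car2, chr3:14770895-14776292 on the minus strand for Car1 and chr3:14866847-14868357 on the plus strand for Car3. The Car13 stretch lies at chr3:14650703-14654892 on the plus strand. Over its 84 bases, Car3 differed from Car2 at 15 bases, Car1 at 21 and Car13 at 27. Histidine codons filled all 3 positions in these 4 members. The longest run of equal bases between Car2 and the other chromosome 3 members was 14 in each, shorter than the 36-base reads. Across all GENCODE M21 transcripts, no 36-base window was shared between any of the 10 members, so a read matching these transcripts perfectly could not belong to more than 1 member.

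Replicate 1 held 20412826 expected counts and replicate 2 held 18564086. A count of 0 allows up to 3 counts, which is 0.147 and 0.162 CPM (counts for each 1000000 counts of the library). Intervals and floors here cover counting error only, since reads were not counted by molecule. The erythroid label was met by its markers, with 6 of 6 detected at a median of 759 TPM. TPM divides counts by transcript length and scales each library to a sum of 1000000, so levels of different genes can be set side by side. The labels also call the line male, but all 183 Y-linked protein-coding genes together had 3 counts in either library.

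Detection was set at 1 TPM in each of the libraries. By this rule 4 of the 10 carbonic anhydrase genes were detected, Car2, Car1, Car3 and Car13, against 41.2% of nuclear protein-coding genes and 24.3% of all genes with a symbol. The detected share was thus close to the background. The same 41.2% is the background for the other gene lists and markers named here, all of protein-coding genes. The lists were chosen with earlier results of these data known, so their shares describe the listed genes only. The median member stood at 0.1325 TPM, beside 0.08 TPM for all protein-coding genes and 20.7 TPM for the detected ones. Summed over the family, the level was 2539 TPM in replicate 1 and 2679 TPM in replicate 2, which was 0.254% and 0.268% of all TPM. The 5 cytosolic members, Car1, Car2, Car3, Car7 and Car13, held 49035 and 45193 of the counts. The mitochondrial member held 2 and 1, the 3 membrane members 0 and 1, and the inactive member none.

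**Figure D1:**
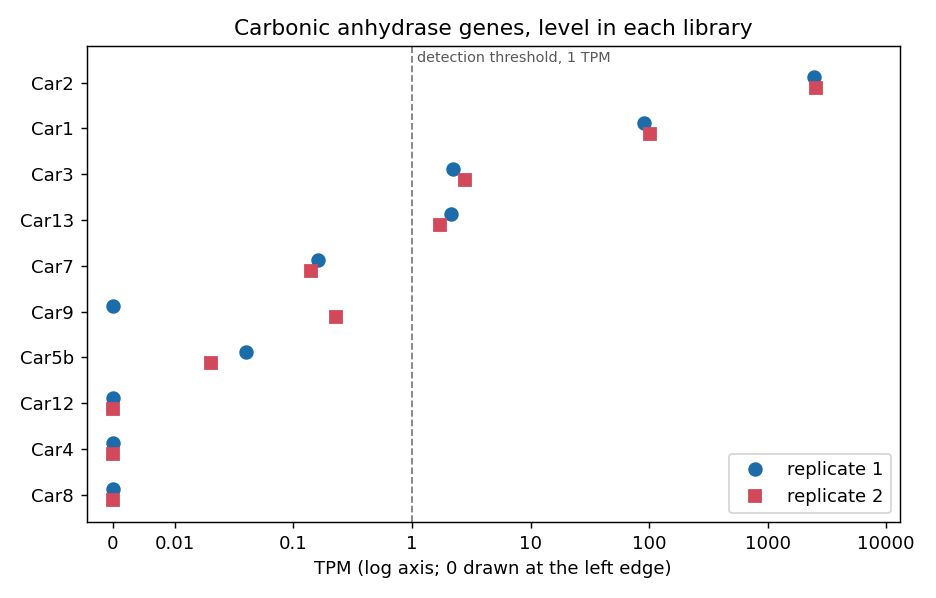
Level of each carbonic anhydrase gene in TPM on a log axis, circles for replicate 1 and squares for replicate 2, with a dashed line at 1 TPM. Car2 lies near 2508 TPM and Car1 near 96.2 TPM, Car3 and Car13 lie just above 1 TPM, and the other 6 genes lie below it or have no read.

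Car2, the fast cytosolic enzyme of red cells, dominated the family. It had 2444 TPM in replicate 1 and 2573 TPM in replicate 2, or 47229 and 43383 counts, a mean of 2508 ± 91.1 TPM (SD, n = 2). Car2 ranked 33 among the 21461 nuclear protein-coding genes, with 99.8% of them below it. It held 96.3% of the family's TPM in replicate 1 and 96.0% in replicate 2. The replicates were nearly equal, at a log2 ratio of replicate 2 over replicate 1 of 0.01 by counts per library total, with an exact 95% Clopper-Pearson interval of -0.0044 to 0.0333.

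Car1, the slower and in adult red cells abundant cytosolic enzyme, was the next member. It had 90.6 and 102 TPM, from 1683 and 1707 counts, a mean of 96.2 ± 7.87 TPM (SD, n = 2), and ranked 1277. Car1 held 3.57% and 3.80% of the family's TPM, so Car2 and Car1 together left little for the other 8 genes. Its log2 replicate ratio was 0.16 with an interval of 0.0594 to 0.255, a small difference beyond counting error. Car2 exceeded Car1 in both libraries, by 4.71 ± 0.07 on the log2 scale of TPM (SD, n = 2), or 26.1-fold. Gm5843, an unprocessed pseudogene that lies between Car13 and Car1 and is listed at 0 TPM in both libraries, shares 224 of the 1246 windows of Car1. A read from those windows cannot be told apart from one of the pseudogene, while every window of Car2, Car3 and Car13 was found in no other gene.

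Car3 and Car13 were far lower. Car3, a cytosolic enzyme of low activity best known from muscle and fat, had 2.23 and 2.78 TPM from 41 and 43 counts. Car13, another cytosolic enzyme, had 2.12 and 1.72 TPM from 77 and 57 counts. By TPM the ranges of these genes did not overlap and Car3 was the higher, at 2.505 ± 0.389 TPM against 1.92 ± 0.283 TPM for Car13 (SD, n = 2 each). By reads alone the order was the reverse, with 2.01 CPM (1.44 to 2.72) and 2.32 CPM (1.68 to 3.12) for Car3 and 3.77 CPM (2.98 to 4.71) and 3.07 CPM (2.33 to 3.98) for Car13, each with its exact 95% interval. Part of the Car3 level was assigned to a transcript with a retained intron, described with the transcripts. The log2 replicate ratios were 0.21 for Car3, from -0.446 to 0.859, and -0.30 for Car13, from -0.817 to 0.216, so the replicates did not differ beyond counting error in either gene. Muscle and fat markers were near 0, with 0 of 4 detected, only Myh7 above 0 at 0.05 and 0.04 TPM, and Ckm, Adipoq and Plin1 at 0.

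The remaining members were not detected. Car7, a cytosolic enzyme best known from brain, had 0.16 and 0.14 TPM from 5 and 3 counts. Car5b, a mitochondrial enzyme, had 0.04 and 0.02 TPM from 2 and 1 counts. Car9, a cell-surface enzyme induced by low oxygen in many cells, had no read in replicate 1 and 0.23 TPM from 1 count in replicate 2. These 3 genes stood at the level of single reads, and their order cannot be read from these libraries. Windows found in no other gene made up 99.1% for Car7, 93.4% for Car5b and 93.3% for Car9. Whether their few reads came from the shared windows was not tested. No read was assigned to Car4, a lipid-anchored surface enzyme, to Car12, a transmembrane enzyme, or to Car8, a protein without catalytic activity that binds the inositol trisphosphate receptor. With up to 3 counts allowed, Car4 could have reached 0.290 TPM in replicate 1 and 0.319 TPM in replicate 2. The same limit was 0.0921 and 0.101 TPM for Car12 and 0.0490 and 0.0538 TPM for Car8.

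Along the order from Car2 to Car8, 4 of the 9 neighbouring pairs overlapped between libraries, all of them among the 6 genes that were not detected. Of the 3 members with at least 50 counts on average, Car2, Car1 and Car13, 0 differed over 2-fold between replicates, where 0.978% of genes of that depth did. Car2 exceeded Car13 by 10.36 ± 0.27 and Car1 exceeded Car13 by 5.65 ± 0.33 on the log2 scale of TPM (SD, n = 2 each). From counts without division by length these differences were 9.42 and 4.68. Car2 over the mitochondrial Car5b was 15.90 in replicate 1 and 16.97 in replicate 2 on the log2 scale of deposited TPM, where Car5b is rounded to 0.04 and 0.02. From counts divided by effective length, the log2 ratio was 16.02 in replicate 1 with an exact 95% counting interval of 14.17 to 19.07, and 16.96 in replicate 2 with 14.49 to 22.27, resting on the 2 and 1 reads of Car5b.

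Transcripts of Car2 were split between a complete and an incomplete model. Car2-201, with 1788 bases and the whole coding sequence of 780 bases, had 1327 and 1289 TPM. Car2-202, with 587 bases and annotated as incomplete at its 3′ end, had 1113 and 1281 TPM. Car2-202 therefore held 45.5% and 49.8% of the gene's TPM in the 2 libraries but 20.9% and 23.8% of its counts, 9854 and 10338. It starts 155 bases upstream of Car2-201, and 96 of its 552 windows are found in no other Car2 transcript. Another 456 of them are shared with Car2-201, so the split is an estimate. Counting Car2-201 alone, the Car2 level was 1308 TPM. Against the full-length coding transcripts of Car1, the difference was then 3.77 on the log2 scale in place of 4.71. Both values leave out the counts assigned to Car2-202 and do not move them to Car2-201. The retained-intron model Car2-203 held 0.18% and 0.09%.

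**Figure D2:**
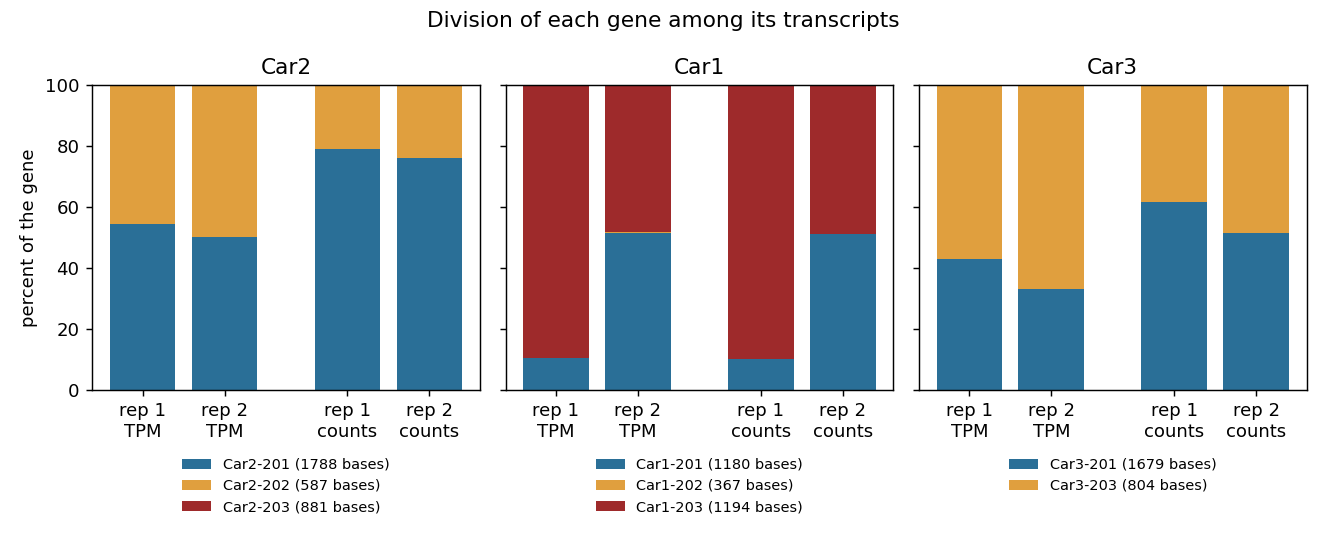
Percent of the TPM (left bars) and of the expected counts (right bars) of Car2, Car1 and Car3 on each transcript with reads, 1 bar per library. Car2-202 takes a larger part of TPM than of counts in both libraries, while Car1-203 holds 89.7% of TPM in replicate 1 and 48.3% in replicate 2.

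Car1 is known for a pair of tissue-specific promoters, an upstream one used in erythroid cells and a downstream one used in colon. Car1-203, which starts 29906 bases upstream of Car1-201, was assigned 1512 counts in replicate 1 and 832 in replicate 2. Car1-201 was assigned 171 and 873 counts. The upstream form thus held 89.7% and 48.3% of the gene's TPM and the downstream form 10.3% and 51.3%, so the libraries disagreed on the leading form while the gene's total was 1683 and 1707 counts. Both forms carry the same length of coding sequence, 783 bases. They share 1094 windows, and only 65 windows of Car1-203 and 51 of Car1-201 separate them, so the split rests on the reads from those windows and is an estimate.

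For Car3, the coding transcript Car3-201 was assigned 25.3 and 22.1 counts, or 0.96 and 0.92 TPM. The retained-intron model Car3-203, with 804 bases, was assigned 15.8 and 20.9 counts, or 1.28 and 1.86 TPM, which was 57.1% and 67.0% of the gene. Car3-203 shares 714 windows with Car3-201, and only 55 of its windows are found in no other Car3 transcript. The split of the 41 and 43 counts of Car3 is therefore an estimate. By this estimate, Car3 stood at 0.94 TPM on coding transcripts alone, under the detection threshold and below Car13, and 3 of the 10 members were detected. Car13 has 1 annotated transcript. Among genes with fewer than 20 counts, the reads of Car7 fell on Car7-202 in replicate 1 and on Car7-201 in replicate 2, and the single Car9 read fell on Car9-204, a model without coding sequence. Car9 shares 214 exon bases with the antisense gene Gm12454, and whether reads were counted by strand is not stated.

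All 4 detected members lie in a cluster of 259 kb at chr3:14641727-14900770, in the order Car13, Car1, Car3 and Car2, with Car1 on the minus strand and the others on the plus strand. The 6 members elsewhere in the genome were not detected, but Car15, a carbonic anhydrase gene on chromosome 16 outside the 10, was, at 1.89 and 2.27 TPM. Levels within the cluster were uneven, since Car3, whose start lies 22.8 kb from that of Car2, had 2.505 TPM beside the 2508 TPM of its neighbour. Proteins translated from the coding sequences had 58.3% of aligned residues equal to Car2 in Car1, 56.9% in Car3 and 56.5% in Car13. Residues not aligned to Car2 were left out, and in Car9 250 of 437 residues were aligned. The shares of aligned residues equal to Car2 were 55.0% for Car7, 51.5% for Car5b, 43.3% for Car8, 38.4% for Car9, 37.5% for Car12 and 33.3% for Car4. Of 20 other genes of all types within 500 kb of the cluster, 3 were detected, beside 24.3% of all genes with a symbol. These were 1810022K09Rik at 106.72 and 69.3 TPM, Lrrcc1, which encodes a centrosomal protein, at 4.17 and 3.21 TPM, and E2f5, a transcription factor of the cell cycle, at 2.22 and 2.19 TPM. No read was assigned to 13 of the 20. The 3 detected were all among the 7 protein-coding neighbours, beside 41.2% of nuclear protein-coding genes.

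**Figure D3:**
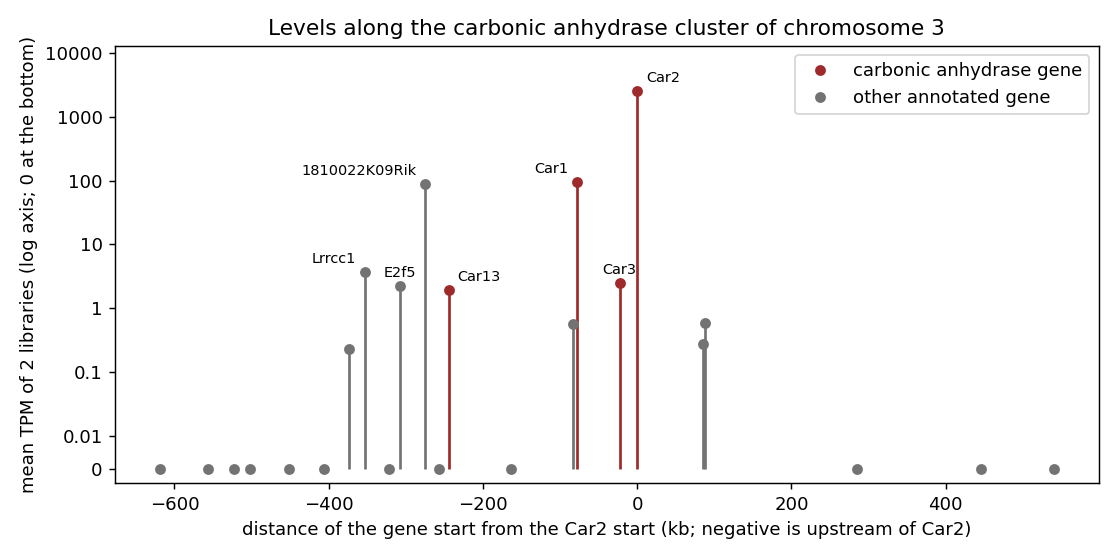
Mean TPM of both libraries (log axis, 0 at the bottom) against the distance in kb of a gene's start from that of Car2, for 23 of the 24 genes in and around the chromosome 3 cluster. Red points are carbonic anhydrase genes and grey points other genes, and Ralyl starts beyond the left edge. Car2 and Car1 stand above the rest of the cluster, and 1810022K09Rik on its Car13 side is the highest of the neighbours.

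Of 6 further carbonic anhydrase genes, 1 was detected, beside 41.2% of nuclear protein-coding genes. This was Car15 on chromosome 16, a lipid-anchored enzyme in rodents, whose 1.89 and 2.27 TPM lay in the range of Car3 and Car13. The mitochondrial liver enzyme Car5a had 0.42 and 0.23 TPM, the transmembrane Car14 had 0.08 and 0.31 TPM, and the inactive Car11 had 0.12 and 0.10 TPM. Car10, also inactive, and the secreted Car6 had no read. The receptor phosphatases Ptprg and Ptprz1, which carry a carbonic anhydrase-like domain, were also at 0.

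Among 18 bicarbonate and anion transporters, 5 were detected, beside 41.2% of nuclear protein-coding genes. Slc4a1, the band 3 protein through which red cells exchange bicarbonate for chloride, had 577.82 and 622.24 TPM. Slc4a2, its relative of most other cells, had 17.64 and 18.07 TPM, the sulfate transporters Slc26a11 and Slc26a2 had 9.19 and 9.19 TPM and 4.52 and 4.55 TPM, and the list's median was 0.05 TPM. The erythroid exchanger was therefore far above every other gene of this list. Car2 exceeded Slc4a1 by 2.06 ± 0.02 on the log2 scale of TPM (SD, n = 2), or 4.18-fold, but by 0.31 from counts without division by length. The full-length Car2-201 alone had a mean of 1308 TPM, beside 600 TPM for the whole Slc4a1 gene. Against the adult beta-globin Hbb-bs, Car2 stood at -4.70 ± 0.08 on the log2 scale of TPM (SD, n = 2), which became -3.61 from counts and -2.15 when only protein-coding transcripts were used. The level of Car2 itself hardly moved in that last setting, at 2504.8 TPM beside 2508 TPM.

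Of 5 gas channels, 2 were detected, a share near the 41.2% of nuclear protein-coding genes. Both belong to the Rhesus group of red cell membrane proteins: Rhag at 88.25 and 85.93 TPM and Rhd at 64.6 and 69.35 TPM. The related Rhbg had 0 TPM in both libraries and Rhcg had 0 and 0.03 TPM. Aqp1, a water channel of the mature red cell membrane, had 0.02 TPM in replicate 1 and 0 in replicate 2. Bsg, the partner protein of lactate carriers, had 626.43 and 637.49 TPM. The lactate carriers Slc16a1 and Slc16a3 had 22.4 and 24.94 TPM and 10 and 9.78 TPM.

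Enzymes that consume bicarbonate were detected for 6 of 9 genes, beside 41.2% of nuclear protein-coding genes, with a median of 13.465 TPM. Pcx, pyruvate carboxylase, had 139.02 and 153.83 TPM, and Cad, the multienzyme protein that starts pyrimidine synthesis, had 50.25 and 50.36 TPM. Acaca, which starts fatty acid synthesis, had 14.78 and 15.6 TPM. Of the 10 hypoxia-related genes set beside Car9, 7 were detected, beside the same 41.2%. The other 3 were at or near 0 like Car9, with Egln3 and Adm at 0 TPM in both libraries and Ndrg1 at 0.02 and 0 TPM. Ldha, a lactate dehydrogenase subunit, had 2374.51 and 2373.71 TPM, and Bnip3, a mitophagy receptor, had 319.54 and 321.1 TPM. Slc2a1, a glucose transporter, had 233.37 and 253.46 TPM, and Vegfa, a growth factor of blood vessels, had 178.8 and 218.33 TPM. Beside Car8, 1 of 3 inositol trisphosphate receptors was detected, Itpr2 at 3.65 and 3.69 TPM, and its known partner Itpr1 had 0.44 and 0.41 TPM.

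**Figure D4:**
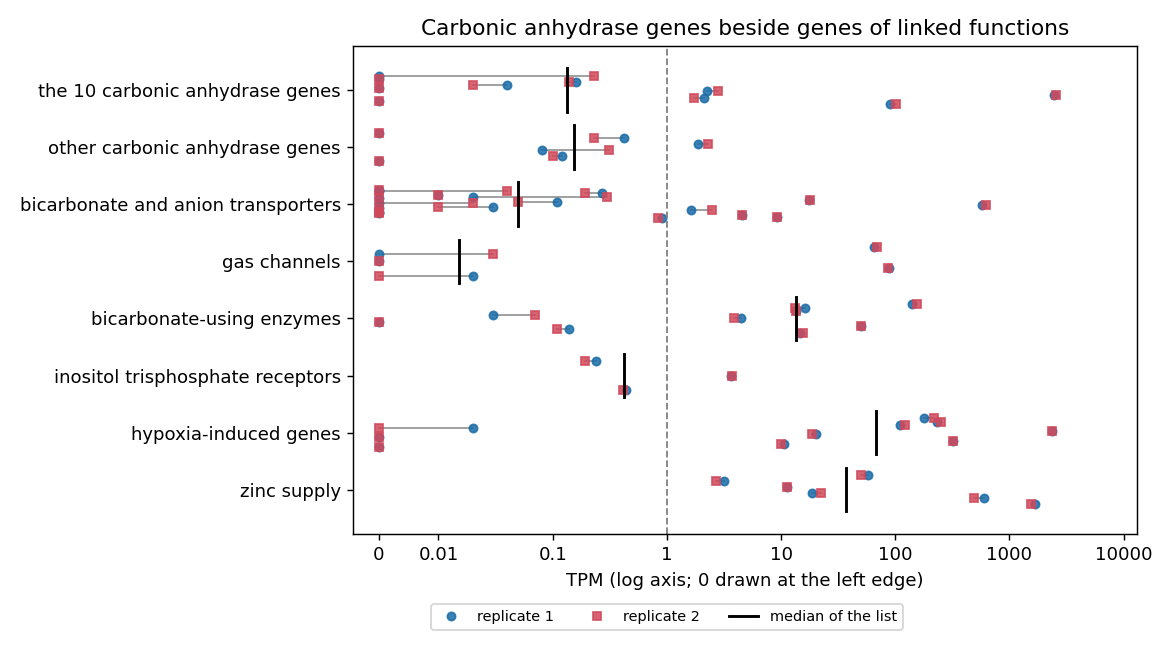
Level in TPM (log axis) of each gene in the lists linked to carbonic anhydrase function, 1 row per list, with circles for replicate 1, squares for replicate 2, a line joining the values of a gene, a bar at the list's median and a dashed line at 1 TPM. Every listed gene of zinc supply was detected, while the transporter and gas channel lists each hold a few high genes and many near 0.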

How the data were processed

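Per the deposited manifests, reads were quantified on the mm10 assembly with GENCODE M4, 1 library per file. No source used here names the aligner, the quantifier or the strand setting. The authors deposited, per the file headers, an expected count, TPM, a posterior mean TPM that contains a prior, and the percent of a gene's TPM on each transcript. Symbols and coordinates came from GENCODE M21 on the same assembly, GRCm38.

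Levels are the deposited TPM in each library with the mean and SD. CPM and replicate ratios were computed from expected counts divided by library totals, with exact 95% Clopper-Pearson intervals. A separate version of the fold formula was run on simulated counts with counting error only, which does not test the reported folds. Replicate folds were counted over genes with at least 50 counts on average. Every window of 36 bases, the read length implied by length minus effective length, was searched in all GENCODE M21 transcripts on both strands. The reads had been quantified with GENCODE M4, whose transcripts were not searched. Coding sequences were translated and aligned to Car2. Transcript shares needed at least 20 counts of the gene in each library.

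The members, the lists and the 8 ratios were chosen with earlier results of these data known. The text names every member, up to 4 genes of each list by mean TPM and the genes of the ratios. Neighbours of the cluster, genes named at or near 0, the zinc-site stretch, the window counts and the transcript pairs were chosen after values were seen. Some items of the lists and sequences are not reported here. The ratios Car9 over Car12 and Car8 over Itpr1 have no value because a gene was at 0. Alternatives were posterior mean TPM, CPM, coding transcripts only, other detection thresholds and leaving out each library. Python 3.11.15, pandas 2.3.3, numpy 2.4.6, scipy 1.17.1, matplotlib 3.10.9 and Biopython 1.88 were used.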

Additional observations from a re-analysis of the deposited data

How the results depend on the processing

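No paired analysis was possible because both libraries belong to 1 group. Of the values that answer a comparison, 43 stayed under an alternative within 1 SD of the mean of both libraries, or within 1.5 times for counts. Another 11 moved further and none changed direction. The 43 include every setting with a library left out. The order of Car3 and Car13 was not among these values, and it did reverse. Car3 had 2.16 CPM against 3.42 CPM for Car13, and 0.94 against 1.92 TPM on coding transcripts only. The 0.94 TPM rests on the estimated split of the Car3 reads among transcripts. Without division by length, the log2 ratios were 9.42 for Car2 over Car13, 4.68 for Car1 over Car13, 0.31 for Car2 over Slc4a1, -3.61 for Car2 over Hbb-bs and 14.97 for Car2 over Car5b. With posterior mean TPM, Car2 over Car5b was 15.15. With protein-coding transcripts only, Car2 over Slc4a1 was 2.26 and Car2 over Hbb-bs was -2.15. With full-length coding transcripts only, chosen after seeing the data, Car2 over Car1 was 3.77. The causes were not tested, apart from division by length, which the alternative removes. The share of genes over 2-fold between replicates was 3.15% at 10 counts on average or more and 10.7% with no filter. At 0.1 TPM, 5 members were detected. On coding transcripts only, also chosen after seeing the data, 3 were. A library left out cannot move a mean of 2 by more than 1 SD, so those settings say nothing about stability. Depth limits the order of the 6 undetected members, which had 5 counts or fewer in each library, but not the detection call of Car4, Car12 and Car8, whose limits at 0 counts lie under 1 TPM.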

Other observations

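All 6 listed genes of zinc supply were detected, beside 41.2% of nuclear protein-coding genes, with a median of 37.285 TPM. The list was chosen with earlier results of these data known, so this share says nothing about zinc genes outside it. The metallothionein Mt1, which binds zinc in the cytosol, had 1678.73 and 1541.79 TPM, and Mt2 had 600.46 and 488.44 TPM. The zinc importer Slc39a8 had 58.08 and 50.17 TPM and the exporter Slc30a1 had 18.49 and 22.4 TPM.

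Markers of other cells that use carbonic anhydrases were mostly at or near 0. Of 4 osteoclast markers, 1 was detected: Acp5, an acid phosphatase, had 149.41 and 151.65 TPM, while Ctsk had 0.09 and 0.05 TPM and Calcr and Ocstamp had no read. All 4 markers of gastric or renal epithelium had no read. Of 6 markers of mast cells, megakaryocytes and macrophages, 2 were detected, the platelet chemokine Pf4 at 19.34 and 20.74 TPM and the integrin Itga2b at 3.6 and 4.15 TPM. The part of such cells in the carbonic anhydrase levels was not tested.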
